A study of Bos taurus with 24 samples.

Results

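INHA, INHBA and FST, the inhibin alpha subunit, the inhibin beta A subunit and follistatin, are 3 of the 11306 genes in the expression table and were taken by gene symbol. They were followed in 24 RNA-seq libraries of bovine oocytes, 6 from each of 4 groups: germinal vesicle (GV) oocytes, the immature stage, and metaphase II (MII) oocytes, the mature stage, each collected in spring (May) and in summer (July). The donors were non-lactating, non-pregnant, crossbred Angus-based Bos taurus cows, from which cumulus-oocyte complexes were aspirated by ovum pick-up under ultrasound. GV oocytes were stripped of cumulus cells with hyaluronidase and vortexing without culture, whereas MII oocytes were stripped after in vitro maturation in medium with FSH and fetal bovine serum. In the study's methods each library is a pool of 4 oocytes from 1 cow, while the labels speak of individually lysed cells, and no label ties a library to a named cow. The methods also state that the same cows were aspirated in every session, with each cow's oocytes divided between GV and maturation. Libraries of different groups can therefore share a donor, and the tests below treat them as independent. Season was the month of collection, so season and anything else that differed between the May and July sessions cannot be told apart.

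Inhibins and activins are dimers that share beta subunits. An alpha subunit (INHA) joined to a beta subunit (INHBA or INHBB) gives an inhibin, which lowers FSH secretion from the pituitary, and a pair of beta subunits gives an activin, which binds type II and type I serine/threonine kinase receptors and acts through SMAD2 and SMAD3. Follistatin binds activin and blocks its access to the receptors. In the ovary the 3 genes are best known as products of the granulosa cells that surround the oocyte, and denuding is meant to remove these cells before lysis.

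Values are given as FPKM, fragment counts scaled to transcript length and library size. Every library summed to between 86768.1 and 86768.2, so the values were also brought to a common total. The lowest value in the table was 0.01, and values above it moved in equal steps whose size depended on the gene and the library, so a step is what 1 counted fragment adds. From the step sizes the depth of each library relative to spring GV replicate 1 was obtained. This relative depth carries the scaling to a common total and is not a read count. Spring GV replicate 6 stood lowest at 0.0565, followed by spring MII replicate 6 at 0.149 and summer GV replicate 2 at 0.393, whereas summer GV replicate 5 stood highest at 6.51. The 3 shallow libraries are also those for which the study's read summary gives the lowest mapping. Spring GV replicate 3 stood apart in content, with 23 genes over 10-fold above every other library, INHA and FST among them, against 82 such genes in spring GV replicate 6, 4 for spring MII replicate 6, 1 for summer MII replicate 4 and 0 in each of the others. Each result below is therefore given with and without these libraries where they change it.

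The 3 genes had one pattern in common: a high level in spring GV replicate 3 and low levels in the other 23 libraries. INHA lies on the plus strand of chromosome 2 (chr2:108226858-108229832, UMD3.1.1), INHBA on the plus strand of chromosome 4 (chr4:79986254-79997757) and FST on the minus strand of chromosome 20 (chr20:25588636-25594058). The genes are thus on 3 chromosomes and share no position.

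**Figure D1:**
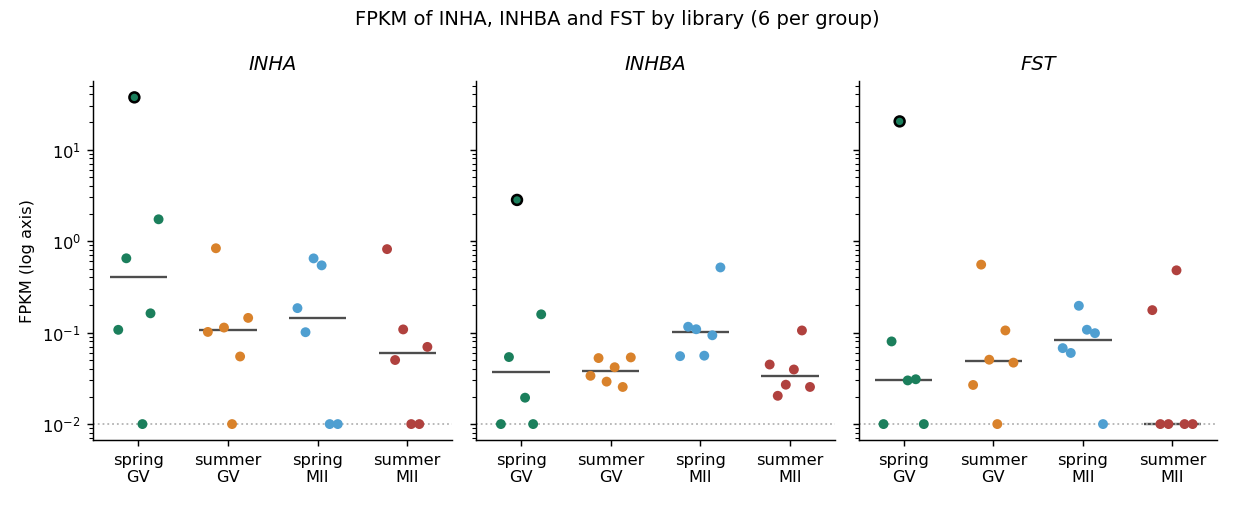
FPKM (log axis) of INHA, INHBA and FST in each of the 24 libraries, by group; horizontal bars are group medians, the dotted line is the lowest value of the table (0.01), and the black-edged point is spring GV replicate 3. That library lies at 37.2 (INHA), 2.82 (INHBA) and 20.3 FPKM (FST), above all 23 others in each panel.

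INHA, the subunit found only in inhibins, had the highest median of the 3 genes over the 24 libraries (0.108 FPKM, against 0.0487 for both INHBA and FST). In spring GV oocytes its FPKM was 0.107, 0.648, 37.2, 0.01, 0.162 and 1.73 in replicates 1 to 6. In summer GV oocytes it ranged from 0.01 to 0.835 with a median of 0.108. In spring MII oocytes the range was 0.01 to 0.647 (median 0.143), and in summer MII oocytes 0.01 to 0.817 (median 0.0599). All 4 groups overlapped, and each contained at least 1 library at the lowest value. The second highest value, 1.73 FPKM in spring GV replicate 6, amounted to 3 steps, since a single step of INHA in that shallow library is worth 0.573 FPKM. Spring GV replicate 3 held 699 steps of INHA, against 121 steps summed over the other 23 libraries, 6 of which had 0 steps.

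INHBA, the subunit shared by inhibin A and activin A, was the lowest of the 3 genes in spring GV replicate 3 but the most regularly detected elsewhere. Its FPKM in spring GV replicates 1 to 6 was 0.01, 0.054, 2.82, 0.0194, 0.01 and 0.158. Summer GV oocytes lay within a narrow range of 0.0254 to 0.0535 (median 0.0378). Spring MII oocytes had 0.0553 to 0.515 (median 0.101) and summer MII oocytes 0.0204 to 0.105 (median 0.0332). Only 2 of the 24 libraries, spring GV replicates 1 and 5, had 0 steps of INHBA, and outside spring GV replicate 3 (204 steps) no library had more than 12. The value of 0.158 in spring GV replicate 6 was 1 step, whereas the 0.515 in spring MII replicate 6 was 9 steps.

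FST, the activin antagonist, showed the widest gap between spring GV replicate 3 and the rest. In spring GV replicates 1 to 6 its FPKM was 0.01, 0.08, 20.3, 0.03, 0.0309 and 0.01. Summer GV oocytes ranged from 0.01 to 0.553 (median 0.0487), spring MII oocytes from 0.01 to 0.196 (median 0.083) and summer MII oocytes from 0.01 to 0.479 (median 0.01). FST was at 0 steps in 8 of the other 23 libraries, 4 of them in summer MII oocytes, and at 696 steps in spring GV replicate 3. A count of 0 is a loose limit in the shallow libraries: with 3 counts as the most it allows, and counting error only, FST could have reached 0.944 FPKM in spring GV replicate 6 and INHA 0.651 FPKM in spring MII replicate 6.

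Spring GV replicate 3 exceeded the next highest library 21.5-fold for INHA, 5.47-fold for INHBA and 36.8-fold for FST. Against the median of the other 23 libraries (0.107, 0.0448 and 0.0469 FPKM) the ratios were 347, 62.9 and 433. The next highest library differed between the genes: spring GV replicate 6 for INHA, spring MII replicate 6 for INHBA and summer GV replicate 2 for FST, which are the 3 shallow libraries. The deepest library, summer GV replicate 5, had 9 steps of INHA, 12 of INHBA and 35 of FST, corresponding to 0.0548, 0.0254 and 0.106 FPKM. All 3 genes were thus detected there above the limit of 3 steps, at levels within the range of the other 22 libraries left once spring GV replicate 3 is set aside.

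The proportions of the 3 genes also varied. Of their summed FPKM above 0.01, INHA made up 61.7%, INHBA 4.65% and FST 33.7% in spring GV replicate 3. In the other 11 GV libraries together these shares were 75.7%, 7.51% and 16.8%, and in the 12 MII libraries 52.6%, 23.4% and 24%. These shares moved with single shallow libraries: without spring GV replicate 6 the GV shares were 66%, 7.27% and 26.7%, without summer GV replicate 2 as well 72.1%, 10.7% and 17.2%, and without spring MII replicate 6 the MII shares were 59%, 14.1% and 26.9%. Library by library, INHA exceeded INHBA in 16 of the 23 other libraries and FST in 16, with 3 equal, while FST exceeded INHBA in 12 of 23, with 1 equal. FST and INHBA therefore had no fixed order outside spring GV replicate 3. Over all 24 libraries the levels of the 3 genes, as log2(FPKM + 1), went together (Pearson r of 0.901 for INHA and INHBA, 0.94 for INHA and FST and 0.932 for INHBA and FST), but without spring GV replicate 3 these values were 0.0613, 0.282 and -0.108 over 23 libraries. The libraries differ in depth, and most of the remaining values are a few steps.

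Granulosa and cumulus markers were set beside the members because the 3 transcripts are best known as products of granulosa cells. Of 19 listed markers 17 are in the table (FOXL2 and LHCGR are not among its genes), and 6 of the 17 were at their highest in spring GV replicate 3. They included AMH, the granulosa hormone anti-Müllerian hormone, at 13.4 FPKM against at most 0.363 elsewhere, HSD17B1, which makes estradiol from estrone, at 39.5 against at most 1.38, vimentin (VIM) at 75.7 against at most 2.16, and the gap junction protein GJA1 at 15.6 against at most 3.98. CYP11A1, which makes pregnenolone from cholesterol and was named after its values were seen, was at 12 against at most 2.5. Also highest there was FSHR, the FSH receptor that defines granulosa cells, at 0.0352 FPKM, close to the lowest value. It was at most 0.0188 elsewhere and 0.01 in 21 of the other 23 libraries. CYP19A1, the aromatase of estrogenic granulosa cells, was at 0.0531, within the range of the others (0.01 to 0.0687). The listed markers AMHR2 and NR5A1 were at the lowest value, 0.01, in spring GV replicate 3.

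Summed over the 17 markers, FPKM was 193 in spring GV replicate 3. It ranged from 38.2 to 580 in spring GV oocytes, from 32.7 to 121 in summer GV oocytes, from 32 to 156 in spring MII oocytes and from 24 to 78.7 in summer MII oocytes. The highest sum, 580, belonged to spring GV replicate 6, where the keratins KRT8 (146 FPKM) and KRT18 (392 FPKM) made up most of it and INHA was at 3 steps, INHBA at 1 and FST at 0. STAR, the cholesterol carrier of steroid-producing cells, was detected in every library (9.36 to 64.3 FPKM) and was at 21.4 in spring GV replicate 3. Spring GV replicate 6 thus had the highest sum through its keratins, with the members at few steps in a shallow library. In FPKM its INHA (1.73) was second only to spring GV replicate 3, and its INHBA was at 0.158. With 3 steps as the limit, its FST could have reached 0.944. How much granulosa or cumulus cell RNA contributed to the members' level was not tested, and in pooled oocytes more cells of a type and more RNA per cell cannot be told apart.

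**Figure D2:**
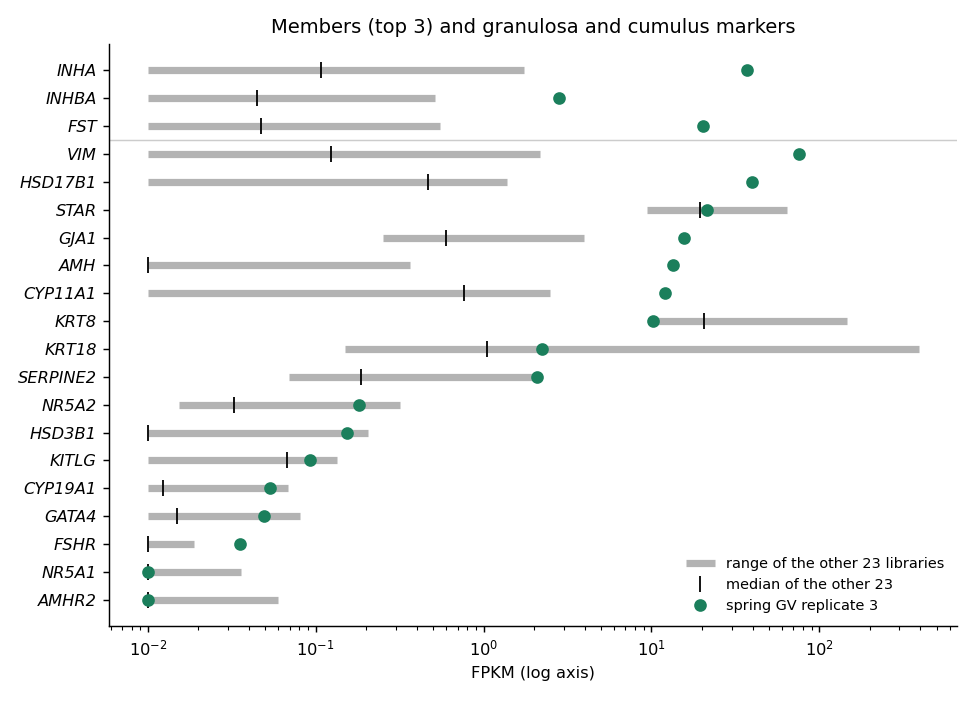
FPKM (log axis) of the 3 members and of 17 granulosa and cumulus markers: the green point is spring GV replicate 3, the grey bar spans the other 23 libraries and the tick is their median. The members, VIM, HSD17B1, GJA1 and AMH lie to the right of the bar, whereas KRT8, STAR, CYP19A1 and AMHR2 lie within it.

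Markers of other cell types moved in part with the members. The 7 theca and stroma markers measured (of 8 listed) summed to 13.0 FPKM in spring GV replicate 3 and to at most 3.21 elsewhere, with 2 of 7 at their highest there. Nearly all of it was INSL3, a hormone of theca cells (12.1 FPKM), while CYP17A1, the enzyme that defines theca cells, was at 0.0362, and ACTA2 (0.111) and COL1A2 (0.0876) were within the range of the other libraries. The 7 blood and immune markers measured (of 9) summed to 174 FPKM there and to at most 66.4 elsewhere, with 2 of 7 at their highest there. SRGN, a proteoglycan core protein of secretory granules, accounted for 127 FPKM, and CD52 (26.1) and the hemoglobin gene HBA (20.5) for most of the rest. CD52 was within the range of the other libraries (2.09 to 59.5), whereas HBA was above it (at most 9.12). The leukocyte marker PTPRC was at the lowest value. Cumulus expansion genes, which cumulus cells switch on in response to the ovulatory signal, summed to 4.06 FPKM in spring GV replicate 3, between the 1.45 and 10.8 of the other spring GV libraries, and 1 of the 8 measured (of 9) was at its highest there. Among them PTGS2 was at 3.12, HAS2 at 0.445 and GREM1 at 0.125, each inside the range of the others.

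Oocyte markers were present throughout, so the labelled cell type holds in all 24 libraries. The 14 oocyte markers measured (of 22) summed to 580 FPKM in spring GV replicate 3, against 454 to 1980 elsewhere. None of the 14 was at its highest in that library. ZP4 (26.2 FPKM), KPNA7 (5.86) and UCHL1 (7.03) were below every other library there (lowest 27.8, 6.73 and 7.6). ZP2, ZP3 and BMP15 were at 0.302, 0.275 and 0.33 of the median of the others. Above that median were ZAR1, DDX4, DAZL and KIT, at 1.51, 1.64, 1.61 and 1.31 of it. Apart from ZAR1, these markers were named after their values were seen. DPPA3, a maternal factor of the early embryo, was at 313 FPKM (median of the others 359), the oocyte growth factor GDF9 at 90.4 (median 90.5) and ZAR1, a regulator of stored maternal mRNA, at 61.4 (median 40.5).

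Within each stage the members' log2(FPKM + 1) was set against the mean log2(FPKM + 1) of the 17 granulosa and cumulus markers, 6 relations in all. Members and markers were chosen with earlier results of these data known, which the p-values do not take into account. Over the 12 GV libraries Pearson's r was 0.919 for INHA (permutation p = 0.00028, Benjamini-Hochberg adjusted p = 0.00168), 0.836 for INHBA (p = 0.00196, adjusted 0.00588) and 0.812 for FST (p = 0.0136, adjusted 0.0272). Spearman's rho was 0.539, 0.354 and 0.275, with permutation p of 0.0741, 0.258 and 0.386 and adjusted p of 0.445, 0.463 and 0.463. Within the 6 spring GV libraries r was 0.923, 0.864 and 0.808, and within the 6 summer GV libraries 0.915, 0.452 and 0.968. Without spring GV replicates 3 and 6, the farthest from the median marker level, r was 0.734, 0.34 and 0.953 over 10 libraries. With the list short of KRT8, KRT18 and VIM, r was 0.979, 0.977 and 0.983 (adjusted permutation p of 0.00828, 0.0156 and 0.0132), rho was 0.546, 0.63 and 0.352 (adjusted 0.205, 0.184 and 0.353), and r without spring GV replicate 3 and summer GV replicate 2, its farthest libraries, was 0.715, 0.707 and -0.0975. The size of r rests on a few libraries: without the 3 shallow libraries r was 0.989, 0.993 and 0.995 but the adjusted permutation p rose to 0.0862, 0.104 and 0.0862. Leaving out spring GV replicate 3 alone gave 0.908 for INHA (adjusted permutation p = 0.00948), 0.845 for INHBA (0.0299) and 0.352 for FST (0.162), and without spring GV replicate 6 and summer GV replicate 2 as well these fell to 0.143, -0.187 and 0.248 over 9 libraries.

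In the 12 MII libraries no member passed the adjusted threshold against the same markers. Pearson's r was -0.183 for INHA (permutation p = 0.58, adjusted 0.58), 0.654 for INHBA (p = 0.0473, adjusted 0.0709) and 0.276 for FST (p = 0.363, adjusted 0.436). Spearman's rho was -0.295, 0.231 and 0.29, with permutation p of 0.347, 0.469 and 0.358 and adjusted p of 0.463, 0.469 and 0.463. Spring MII r was -0.415, 0.971 and -0.497, and summer MII r 0.0216, 0.00679 and 0.639, for INHA, INHBA and FST. Without spring MII replicate 6 and summer MII replicate 4, r was 0.184, 0.0866 and 0.271 over 10 libraries. The INHBA value turned on spring MII replicate 6, and without the shallow libraries it was -0.0617.

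**Figure D3:**
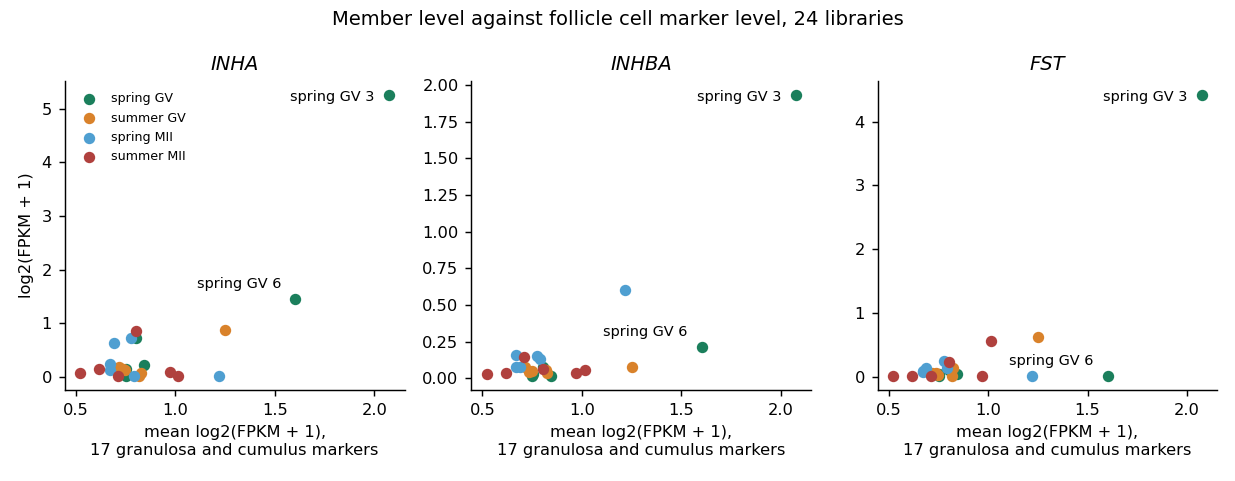
log2(FPKM + 1) of each member against the mean log2(FPKM + 1) of 17 granulosa and cumulus markers in 24 libraries, coloured by group. Spring GV replicate 3 is at the top right of each panel. Spring GV replicate 6, a shallow library, is second on the marker axis and low on the INHBA and FST axes, at 1 and 0 steps.

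From GV to MII in spring none of the 3 genes passed the study's thresholds (a fold change over 2 with a p, before adjustment, under 0.05), which 11.8% of the 9526 genes tested passed. None had a limma p under 0.05 before adjustment, as 38.8% of all genes did. INHA averaged 6.64 ± 15 FPKM (SD, n = 6) in GV and 0.249 ± 0.277 in MII oocytes, INHBA 0.511 ± 1.13 and 0.157 ± 0.177, and FST 3.41 ± 8.28 and 0.0899 ± 0.0624. With limma on log2(FPKM + 1) the MII minus GV difference was -1.01 for INHA (95% confidence interval -2.59 to 0.57, Benjamini-Hochberg adjusted p = 0.322), -0.18 for INHBA (-0.80 to 0.43, adjusted p = 0.644) and -0.65 for FST (-2.03 to 0.73, adjusted p = 0.454). In each case the GV standard deviation exceeded the GV mean, and spring GV replicate 3 made the difference. Without it the differences were -0.22 for INHA (exact two-sided permutation p = 0.496), 0.13 for INHBA (exact p = 0.182) and 0.077 for FST (exact p = 0.0823), with the directions of INHBA and FST turned.

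With the 3 shallow libraries left out as well, a choice made after the data were seen, 5 spring MII libraries remained against 4 spring GV libraries. INHBA then averaged 0.0858 ± 0.0288 FPKM in MII and 0.0234 ± 0.0209 in GV oocytes, a difference of 0.085 in log2(FPKM + 1). All 5 MII libraries lay above all 4 GV libraries (exact permutation p = 0.0317, unadjusted), which held for 17.4% of all genes tested. The spring GV libraries left out, replicates 3 and 6, held the highest INHBA values of their group (2.82 and 0.158 FPKM). Leaving them out favoured this separation, so its p is not an independent test. Spring MII replicate 6, also left out, was the highest MII library (0.515). The nearest values were 0.0553 FPKM in MII (5 steps) and 0.054 in GV oocytes (4 steps). FST averaged 0.106 ± 0.0543 against 0.0377 ± 0.0298 (exact permutation p = 0.0476), with 3 of 5 MII libraries above all GV libraries. INHA, at 0.297 ± 0.281 against 0.232 ± 0.285, overlapped (exact permutation p = 0.778). By limma on these libraries the adjusted p was 0.0116 for INHBA and 0.0599 for FST, where 47.9% of all genes had one under 0.05. The INHBA and FST values are a few steps per library, too low for a difference of 1 with a pseudocount of 1. Without a pseudocount, and with spring GV replicate 3 alone left out, INHBA was called higher in MII (2.0 on the log2 FPKM scale, limma adjusted p = 0.0863), as were 14.9% of all genes.

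From GV to MII in summer the 3 genes stayed within the spread of the libraries. None was called by limma, against 11.5% of all genes tested, and none had a p under 0.05 before adjustment (42.1% of all genes). INHA averaged 0.21 ± 0.31 FPKM in GV and 0.177 ± 0.315 in MII oocytes, INHBA 0.0394 ± 0.012 and 0.0437 ± 0.0316, and FST 0.132 ± 0.209 and 0.116 ± 0.19 (SD, n = 6 each). The differences by limma were -0.042 (95% confidence interval -0.40 to 0.32), 0.0056 (-0.035 to 0.046) and -0.019 (-0.28 to 0.24), with adjusted p of 0.875, 0.846 and 0.922. With values this low and a pseudocount of 1, a difference of 1 on this scale was out of reach. On the log2 FPKM scale without a pseudocount the differences were -0.77 for INHA, -0.029 for INHBA and -0.91 for FST (limma adjusted p of 0.637, 0.966 and 0.578). For INHA and FST the direction turned without summer GV replicate 2, to 0.085 and 0.076.

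Between seasons in GV oocytes no member was called by limma, and few genes were in all (0.0315% of those tested). The study applied these thresholds with another method (Partek Flow GSA) and reported more genes between seasons at both stages. The shares given here are therefore not the study's own. No member had a p under 0.05 before adjustment, against 1.55% of all genes. Summer minus spring was -1.06 for INHA (95% confidence interval -2.64 to 0.52), -0.32 for INHBA (-0.92 to 0.27) and -0.61 for FST (-2.01 to 0.78), each with a limma adjusted p of 1. Exact permutation p were 0.225, 0.418 and 0.874. Without spring GV replicate 3 the differences were -0.27, -0.013 and 0.12 (exact permutation p of 0.368, 0.874 and 0.359). Set beside those of the other 5 spring GV libraries, summer GV oocytes had INHA at 0.21 ± 0.31 against 0.532 ± 0.714 FPKM, INHBA at 0.0394 ± 0.012 against 0.0503 ± 0.063 and FST at 0.132 ± 0.209 against 0.0322 ± 0.0286. The shallow libraries carried much of this: without spring GV replicate 6 and summer GV replicate 2 as well, INHA was at 0.0849 ± 0.0529 (n = 5) in summer against 0.232 ± 0.285 (n = 4) in spring, INHBA at 0.0367 ± 0.0112 against 0.0234 ± 0.0209, its direction turned, and FST at 0.048 ± 0.0361 against 0.0377 ± 0.0298 (exact permutation p of 0.341, 0.254 and 0.643).

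Between seasons in MII oocytes INHBA was lower in summer by an exact test with all libraries, at a level of a few steps. In spring MII replicates 1 to 6 it had 5, 9, 9, 4, 8 and 9 steps, and in summer MII replicates 1 to 6 it had 4, 1, 2, 2, 10 and 1. The means were 0.157 ± 0.177 FPKM in spring and 0.0437 ± 0.0316 in summer (SD, n = 6). Below all 6 spring libraries lay 5 of 6 summer libraries, and the share of all genes that separate this way was not counted. The highest of these 5 was at 0.0448 FPKM (4 steps) and the lowest spring library at 0.0553 (5 steps). An exact permutation test gave p = 0.0238, the lowest of the 12 exact tests of members with all libraries, and p = 0.0541 without spring MII replicate 6. In limma the difference was -0.14 (95% confidence interval -0.30 to 0.03 and adjusted p = 1), so it was not called, against 0.042% of all genes, and no member had a p under 0.05 before adjustment (2.11% of all genes). Without a pseudocount it was called lower in summer (-1.58 on the log2 FPKM scale, limma adjusted p = 1), as were 0.861% of all genes. INHA (-0.092, -0.46 to 0.28) and FST (0.020, -0.17 to 0.22) showed no seasonal difference beyond the spread of the MII libraries, with exact permutation p of 0.708 and 0.87.

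The change from GV to MII was then compared between the seasons in 1 fit of all 4 groups. The interaction was 0.97 for INHA (95% confidence interval -0.67 to 2.60), 0.19 for INHBA (-0.43 to 0.81) and 0.63 for FST (-0.79 to 2.05), each with a limma adjusted p of 1.0. No member was called, against 0.21% of genes, and none had a limma p under 0.05 before adjustment, against 1.8%. Without spring GV replicate 3 the values were 0.18, -0.12 and -0.096. With no pseudocount as well, INHBA was called (-2.03, limma adjusted p = 1.0), as were 1.34% of all genes in that direction.

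**Figure D4:**
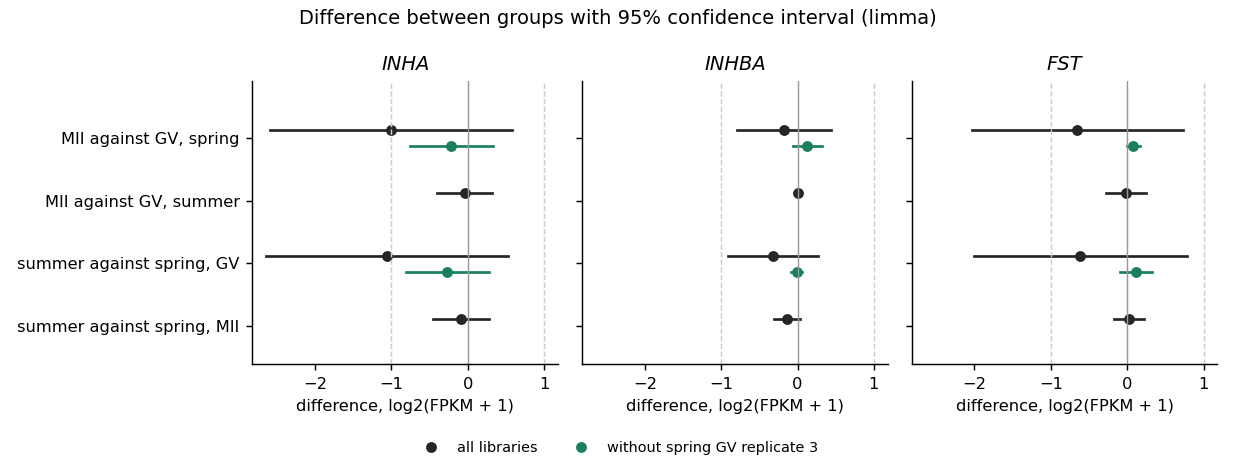
Differences in log2(FPKM + 1) between groups for each member, with 95% confidence intervals from limma, over all libraries (black) and without spring GV replicate 3 (green); dashed lines mark a 2-fold change. Intervals of the comparisons that hold spring GV oocytes narrow when that library is left out, and the INHBA and FST estimates in spring cross 0.

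The other genes of the pathway were taken from lists of ligands, binding proteins, receptors, SMADs and convertases, of which 21 of 36 are in the table and 19 passed the filter on low values. None of the 19 was called in any of the 5 comparisons, against the same percentages as above. Before adjustment 4 of 19 had a limma p under 0.05 in spring MII against GV (38.8% of all genes), 6 of 19 in summer (42.1%) and 0 of 19 between seasons in GV (1.55%), in MII (2.11%) and in the season difference (1.8%). On the adjusted p alone, 2 of 19 passed 0.05 in spring MII against GV and 4 of 19 in summer, where 24.2% and 30.7% of all genes did. These were named after their values were seen. The median difference of the 19 was -0.068 in spring and -0.0031 in summer, beside -0.031 and -0.025 over all genes tested.

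Among the ligands INHBB, the other inhibin and activin beta subunit, was the most abundant and resembled the members. It was at 6.51 FPKM in spring GV replicate 3, 5.3-fold above the next library (1.23 in spring GV replicate 6) and 86.4-fold above the median of the others (0.0753). Group medians were 0.13, 0.0639, 0.0821 and 0.0956 FPKM in spring GV, summer GV, spring MII and summer MII oocytes, and the groups overlapped. MSTN and NODAL, 2 related ligands, stayed at or below 0.524 and 0.127 FPKM.

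The binding proteins and antagonists other than FST did not follow spring GV replicate 3, since 0 of 6 were at their highest there. BAMBI, a decoy receptor that lacks a kinase, was lower in MII than in GV oocytes in both seasons. It averaged 1.06 ± 0.337 FPKM in spring GV and 0.2 ± 0.201 in spring MII oocytes, and 0.832 ± 0.274 and 0.203 ± 0.112 in summer. Its differences were -0.78 (limma adjusted p = 0.00325) and -0.60 (adjusted p = 0.00237), and in each season all 6 MII libraries lay below all 6 GV libraries, as for 8.98% of all genes in spring and 14.7% in summer. FSTL3, a follistatin-like protein that also binds activin, went from 1.07 ± 0.918 to 0.162 ± 0.0831 FPKM in spring (-0.72, limma adjusted p = 0.0454) and from 0.853 ± 0.551 to 0.123 ± 0.0927 in summer (-0.68, adjusted p = 0.00983). In summer 5 of 6 MII libraries lay below all GV libraries, whereas in spring the low spring GV replicate 6, at the lowest value, made the groups overlap. WFIKKN1, an inhibitor of related ligands, went from 0.185 ± 0.148 to 0.0315 ± 0.0528 FPKM in summer (-0.19, limma adjusted p = 0.0455). On the log2(FPKM + 1) scale all of these fell short of a 2-fold change. With a pseudocount of 0.1 BAMBI and FSTL3 were called lower in both seasons (BAMBI by -2.18 and -1.66, FSTL3 by -1.69 and -1.99), WFIKKN1 was called lower in summer (-1.06), ACVR1 was called higher in both (1.11 and 1.12) and FSTL1 higher in spring (1.09). At that pseudocount 17.5% of all genes were called lower and 10.1% higher in spring, and 20.6% and 5.84% in summer.

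ACVR1, a type I receptor, was the most abundant of the 3 receptors measured. It averaged 0.595 ± 0.476 and 1.41 ± 1.21 FPKM in spring GV and MII oocytes and 0.656 ± 0.5 and 1.47 ± 0.771 in summer (limma adjusted p = 0.161 and 0.0829). The type II receptors ACVR2A and ACVR2B did not exceed 0.105 and 1.61 FPKM in any library. TGIF1, a corepressor of SMAD2, led the SMADs and regulators, with 4.83 ± 4.28 and 6.9 ± 2.53 FPKM in spring GV and MII oocytes and 2.77 ± 0.499 and 4.98 ± 1.74 in summer, where it passed the adjusted threshold (0.62, limma adjusted p = 0.0346). FURIN, a convertase that cleaves activin precursors, was at most 0.926 FPKM except in spring GV replicate 6 (5.72). SMAD2 was at 0.717 to 3.56 FPKM outside spring GV replicate 3, whereas SMAD4 was at most 0.469 and SMAD3 at most 0.0775. ACVR1 and SMAD2 were thus detected in libraries in which the ligand subunits and FST were at 0 to a few steps. The receptors ACVR1B and ACVR1C were not among the genes measured, so activin signalling as a whole was not covered.

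**Figure D5:**
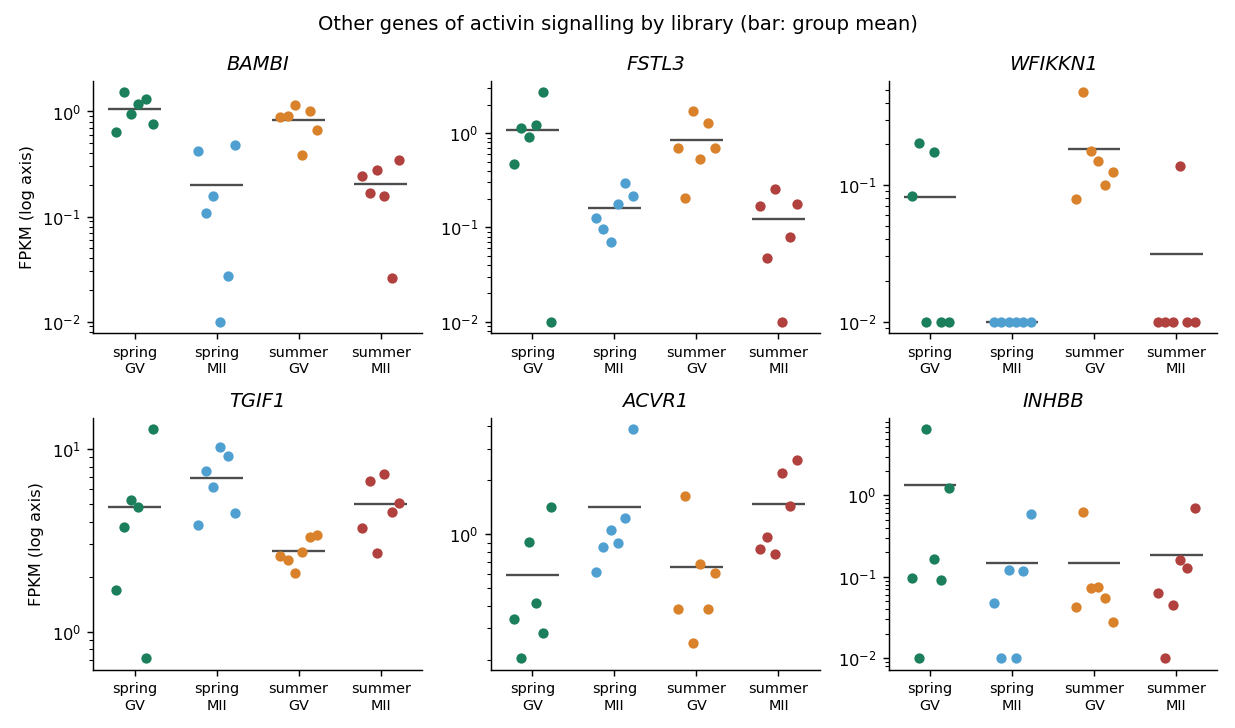
FPKM (log axis) by library of 6 other genes of activin signalling, with group means as bars. All 6 MII values of BAMBI lie below all 6 GV values in each season, whereas INHBB has its highest value in spring GV replicate 3 (6.51).

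The genes whose log2(FPKM + 1) most resembled that of the members over the 24 libraries, among genes with a mean of at least 1 FPKM, were largely the same for all 3. VIM ranked first for INHA (Pearson r = 0.978), INHBA (0.919) and FST (0.953). SRGN, the apolipoprotein gene APOA1 and the troponin gene TNNI3 were among the first 5 for each member, HSD17B1 for INHA (0.895) and FST (0.904), and GJA1 for INHBA (0.905). In spring GV replicate 3 these genes were at 127 (SRGN), 29.3 (APOA1) and 32.9 FPKM (TNNI3), against at most 2.95, 3.62 and 4.98 elsewhere. In the other 23 libraries the medians of VIM, SRGN, APOA1, TNNI3, HSD17B1 and GJA1 were 0.124, 0.203, 0.01, 0.22, 0.466 and 0.601 FPKM. All are under the 1 FPKM of the filter on the mean. Both the filter and the ranking thus rest largely on spring GV replicate 3. Without that library r with VIM was 0.801 for INHA, 0.0583 for INHBA and 0.212 for FST over 23 libraries. APOA1 (0.742), TNNI3 (0.81) and SRGN (0.703) likewise kept an r over 0.7 with INHA alone, and GJA1 kept 0.752 with INHBA. Outside spring GV replicate 3, VIM and INHA were both highest in the shallow spring GV replicate 6. GJA1 and INHBA were both highest in the shallow spring MII replicate 6. The r values describe libraries that differ in depth, and carry no test.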

How the data were processed

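RNA from 24 oocyte pools was amplified with Smart-seq2 v4 chemistry and sequenced from Nextera XT libraries. Per the labels, FastQC, STAR 2.5.3a and Partek were used against UMD3.1; the study's methods give UMD3.1.1, and the annotation used for counting is not given in the sources used here. The authors deposited 1 table of FPKM values, 6 columns per group, with no counts. Amplified fragments without molecular identifiers are not independent molecules, so step limits cover counting error only.

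The table held 11306 genes and 9526 with over 0.1 FPKM in at least 1 library were tested. No library pair was identical. Relative depth came from the spacing of low values: 99.9% of 30497 held-out values fell within 0.05 steps of a whole multiple (10.0% by chance), and 12 of 12 simulated libraries of 4000 genes were solved. limma 3.58.1 (R 4.3.3, eBayes with trend) was run on log2(FPKM + 1) within each pair of groups, with Benjamini-Hochberg adjustment over all genes, after a test on simulated data. Calls needed a fold change over 2 with a p, before adjustment, under 0.05. Members also had exact permutation tests (924 assignments for 6 against 6; scipy 1.17.1). Relations to markers used 100000 permutations. Alternatives were other pseudocounts, filters, scalings, fits and library sets, with 4 of them added after seeing the data.

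Named were the 3 members, called pathway genes, the most abundant gene of each pathway role, the 5 most similar genes per member, and the 3 most abundant and the defining markers of each list. Members and lists were chosen with earlier results of these data known. Listed pathway genes not in the table were INHBC, INHBE, GDF11, GDF1, TGFBR3, TDGF1, ACVR1B, ACVR1C, SMURF1, SMURF2, SKI, PMEPA1, ZFYVE9, PCSK5 and PCSK6. No gene of the table overlaps a member. Sequences were not used here.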

Additional observations from a re-analysis of the deposited data

Results flagged for a closer look

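In groups of 6 libraries, the highest or lowest library was picked out where its gap to the next exceeded 0.625 of the group's range. Chance alone picks about 1 in 20 groups of normally distributed values, a rate that does not carry over to these FPKM, which are skewed and floored at 0.01, and 28 of 60 groups (members, other named pathway genes and summed marker lists) were picked, all for a high library.

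Of the members, INHA stood out in spring GV replicate 3 (37.2 FPKM, next 1.73), summer GV replicate 2 (0.835, next 0.145) and summer MII replicate 1 (0.817, next 0.108). INHBA did so in spring GV replicate 3 (2.82, next 0.158), spring MII replicate 6 (0.515, next 0.116) and summer MII replicate 5 (0.105, next 0.0448). FST did so in spring GV replicate 3 (20.3, next 0.08), summer GV replicate 2 (0.553, next 0.106) and summer MII replicate 4 (0.479, next 0.176). Spring GV replicate 3 was the high library for all 3 members in its group and summer GV replicate 2 for INHA and FST, while in MII oocytes a different library was high for each member.

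Among the other pathway genes INHBB was high in spring GV replicate 3 (6.51 FPKM), summer GV replicate 2 (0.623), spring MII replicate 6 (0.587) and summer MII replicate 6 (0.708). ACVR1 was high in summer GV replicate 2 (1.62) and spring MII replicate 6 (3.84), TGIF1 in spring GV replicate 6 (12.8), FURIN in spring GV replicate 6 (5.72) and summer GV replicate 3 (0.652), and WFIKKN1 in summer GV replicate 2 (0.477) and summer MII replicate 4 (0.139).

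Summed granulosa and cumulus markers were high in spring GV replicate 6 (580 FPKM), summer GV replicate 2 (121) and spring MII replicate 6 (156), the 3 shallow libraries, and cumulus expansion genes in spring GV replicate 6 (10.8) and spring MII replicate 6 (11.1). Theca and stroma markers (13.0) and blood and immune markers (174) were high in spring GV replicate 3, and oocyte markers in summer GV replicate 2 (1980). The part of these cell types in the members' values was not tested.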

How the results depend on the processing

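Of 386 other fits of the members, 3 called one, each time INHBA and without a pseudocount: -1.58 between seasons in MII oocytes, and, with spring GV replicate 3 also left out, 2.0 for MII against GV in spring and -2.03 for the season difference, where 0.861%, 14.9% and 1.34% of all genes were called in the same direction. At these levels, where most values are a few steps, directions turned often, and the cause was not tested. In spring MII against GV the 4 libraries left out together (spring GV replicates 3 and 6, summer GV replicate 2, spring MII replicate 6) gave 0.0738 for INHA, 0.0853 for INHBA and 0.0909 for FST, no pseudocount gave 0.89 for INHBA, and no pseudocount without spring GV replicate 3 gave 1.48 for FST. In summer MII against GV, INHA turned to 0.0760 with quantile normalization, 0.0139 with median-of-ratios scaling and 0.0848 without the shallow libraries, INHBA to -0.0292 without a pseudocount, and FST to 0.0390 with quantile normalization and 0.0758 without the shallow libraries. Between seasons in GV oocytes INHBA and FST turned to 0.0189 and 0.0139 without the 4 libraries, and to 0.45 and 1.29 with no pseudocount and no spring GV replicate 3. In MII oocytes FST turned to -0.10 with a pseudocount of 0.1, -1.11 with none and -0.00124 without the shallow libraries. The season difference turned to -0.92 (INHBA) and -0.77 (FST) without a pseudocount, to -0.0760 and -0.0151 without the 4 libraries, and to -2.39 for FST with no pseudocount and no spring GV replicate 3.

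Leaving out 1 library at a time called no member or pathway gene. Spring MII against GV ranged from -1.27 to -0.22 (INHA), -0.26 to 0.13 (INHBA) and -0.80 to 0.0770 (FST), and summer from -0.17 to 0.0848, -0.0111 to 0.0120 and -0.10 to 0.0758. Season in GV ranged from -1.32 to -0.27, -0.40 to -0.0132 and -0.76 to 0.12, season in MII from -0.22 to -0.00655, -0.16 to -0.0572 and -0.0641 to 0.0476, and the season difference from 0.18 to 1.22, -0.12 to 0.27 and -0.0960 to 0.78. In every comparison with spring GV oocytes the end nearest to or past 0 was the fit without spring GV replicate 3.

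Pathway genes called higher went from 0 to 2 in spring and to 1 in summer, and called lower from 0 to 2 and to 3, with a pseudocount of 0.1 and also with none; the spring counts with none were 2 and 2 without spring GV replicate 3 as well. Without the shallow libraries, and without all 4, 1 was called higher in spring, and with no pseudocount 1 was called higher in summer GV oocytes. The GV relation to markers missed the adjusted threshold with cumulus expansion genes as markers (r of 0.284, 0.158 and 0.103 for INHA, INHBA and FST), without the shallow libraries (0.989, 0.993 and 0.995) and, for FST, without spring GV replicate 3 (0.352), while it passed for all 3 members with the list short of KRT8, KRT18 and VIM (0.979, 0.977 and 0.983). The MII relation of INHBA turned to -0.0617 without the shallow libraries. Same-numbered libraries correlated from -0.441 to 0.764 in their deviations, and in each comparison at least 1 pair was under 0.1. This cannot exclude pairs from the same cow. As no label gives such pairs, the libraries were taken as independent outside the fit with a replicate block. Between seasons in MII oocytes 4 of 6 libraries correlated best with their own number, a hint from the data that no label backs. INHBA was lower in summer in 5 of 6 same-numbered pairs there. In the other comparisons 1 or 2 of 6 libraries correlated best with their own number. The fit with the replicate block left the differences as they were (-1.01 for INHA in spring) and changed no call. A filter at a mean of 1 FPKM left out INHBA and FST.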
